A study of Mus musculus with 60 samples.

Results

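The change from a cumulus cell to a blastula rebuilt from a cumulus cell nucleus was described by setting the 3 libraries of NTC blastulas against the 3 libraries of cumulus cells (CCs), gene by gene, over the whole deposited table. These 6 libraries were chosen by their labels out of 60 in the series. The series followed single mouse embryos of 3 kinds, namely in vivo fertilised embryos, embryos made by nuclear transfer of a cumulus cell (NTC) and embryos made by nuclear transfer of a mouse embryonic fibroblast (NTM), from the 1-cell stage to the blastula, together with both donor cell types. Each of its 20 groups had 3 libraries.

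The CCs came from adult BDF1 females (the F1 of C57BL/6 and DBA/2) that had been superovulated with PMSG and HCG, and they were freed from the ovulated oocytes with hyaluronidase. For NTC embryos a cumulus nucleus was injected into an enucleated BDF1 oocyte, which was activated with strontium in the presence of cytochalasin B and treated with Scriptaid, a histone deacetylase inhibitor, and then cultured. In vivo blastulas came from superovulated C57BL/6 females mated with DBA2 males and had no nuclear transfer, activation or Scriptaid. NTM blastulas were made as NTC blastulas but with passaged, serum-starved BDF1 MEFs from mid-gestation fetuses. Each embryo library held 1 whole embryo, with its trophectoderm and inner cell mass together, whereas the number of cells in a CC library was not given in the sources used here. Nuclear transfer, the oocyte cytoplasm, development, culture, Scriptaid and number of cells all separate NTC blastulas from CCs, and their parts cannot be told apart. In such whole samples, fewer cells of a type and less RNA per cell cannot be told apart either.

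Cumulus cells are the granulosa cells that surround the oocyte. They answer the ovulatory hormone surge by spreading apart in a hyaluronan matrix, begin to make steroids, and break down glucose into pyruvate and lactate that the oocyte and early embryo use as fuel. Nuclear transfer asks the oocyte cytoplasm to shut this programme off and to start that of the embryo, which by the blastula stage has formed an outer epithelium, the trophectoderm, and an inner cell mass that holds the pluripotent cells.

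All values are RPKM, which relate reads to the length of the transcript and to the total on genes in that library, and a fold change is a difference of mean log2(RPKM + 1), NTC blastulas minus CCs, which understates the change of low genes. Where a gene was listed at 0 in every library of a group no fold change is given, as it would depend on the pseudocount. The differences between the donor series given near the end are an exception. A gene was called when limma gave a Benjamini-Hochberg adjusted p under 0.05 and the fold change was 1 or more in size on the log2 scale. CC libraries held 31558140 to 37369128 reads on genes and NTC blastula libraries 10215567 to 19033337. In vivo blastula libraries held 8557973 to 15706984. They listed 7730 to 7808 genes above 0, against 11771 to 13000 in NTC blastulas and 11326 to 12377 in CCs. The part of this in the values of 0 of in vivo blastulas was not tested. By counting alone, 3 reads on a transcript of 2000 bases, which a value of 0 still allows, equalled 0.0401 to 0.0475 RPKM in CCs and 0.0788 to 0.147 RPKM in NTC blastulas. Mitochondrial genes took 2.71 to 3.26% of the reads in CCs and 28.7 to 39.7% in NTC blastulas. Across genes, the NTC blastulas were more alike (Pearson correlation of log2(RPKM + 1) of 0.879 to 0.923 between libraries) than the CC libraries (0.670 to 0.694). The CC libraries are described as biological replicates in the study, without saying whether they came from separate animals, and the p-values measure the spread between these libraries.

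The libraries carried some markers of their labels. Inha, Nr5a1 and Gata4, which granulosa cells express, were at 33.5 RPKM or more in every CC library. Nanog and Cdx2, which mark the inner cell mass and the trophectoderm, were listed at 0 there. Of the 24 granulosa genes of the list used below, 9 were at 1 RPKM or more in every CC library. Another 4 were at 0 in all of them, and the rest were below 1 RPKM in at least 1, among them Fshr, Wt1 and Amhr2. Foxl2, another granulosa regulator, stood at 0.28, 0 and 1.38 RPKM in the CC libraries, so it was close to absent. Few markers of other cells were tested, namely 8 of oocytes, 3 of endothelium, 3 of theca, 1 of macrophages and 1 of oviduct and surface epithelium. None was called, though without CC replicate 1 Cdh5 (adjusted p = 0.00473 by limma) and Mgp (0.0103) were called lower in NTC blastulas. Such calls compare the groups and do not show whether other cells were present. Summed oocyte markers were at 12 to 14.2 RPKM in CCs and 3.26 to 23.3 in NTC blastulas, and the 4 theca markers at 4.75 to 147 and 1.58 to 10.8, where Mgp gave 143 RPKM of the highest CC sum and Cyp17a1, which defines theca cells, was at 0 in all CC libraries. The 9 macrophage markers summed to 0.0492 to 9.33 RPKM in CCs and 1.27 to 2.83 in NTC blastulas, with Aif1, C1qa and C1qb at 0 in all 6 libraries, and the 8 endothelial markers to 0.602 to 21.1 and 1.11 to 2.65, with Cldn5 and Esam at 0 in all 6. Oviduct and surface epithelium markers summed to 0.0494 to 0.0740 RPKM in CCs and 0.369 to 8.10 in NTC blastulas, while erythroid markers did not exceed 0.0647 in any of the 6 libraries. Y-linked genes summed to 0.0156 to 0.0355 RPKM in CCs and 0 to 0.0146 in NTC blastulas, and to 0.028, 73.0 and 36.5 RPKM in the in vivo blastulas. The part of such cells in the results was not tested.

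Of 11469 genes tested, 2775 were called (24.2%), of which 1138 were up-regulated in NTC blastulas (9.92%) and 1637 down-regulated (14.3%). These shares are the background for the counts of each gene list below. The values of the 3 NTC blastulas and the 3 CC libraries did not overlap for 5022 genes (43.8%). The loss was rarely complete at the level of the transcriptome, as 765 of the 1637 down-regulated genes were still at 1 RPKM or more in every NTC blastula, and 467 were below 1 RPKM in all of them, 106 of which were listed at 0 in all. In the other direction, 600 of the 1138 up-regulated genes were below 1 RPKM in every CC library and 273 were listed at 0 in all. Of the 4837 genes at 1 RPKM or more in all CC libraries and the 6198 in all NTC blastulas, 3528 were shared, which is 72.9% of the first and 56.9% of the second. The median fold change over all genes tested was -0.32. It became -0.07 with median-ratio scaling, 0.14 with mitochondrial reads left out and -0.08 without CC replicate 3, and the up-regulated share of the called genes, 41%, became 50.5%, 56.6% and 42.2%. Without NTC blastula replicate 1 or 2 the number called was 1713 or 1504.

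**Figure D1:**
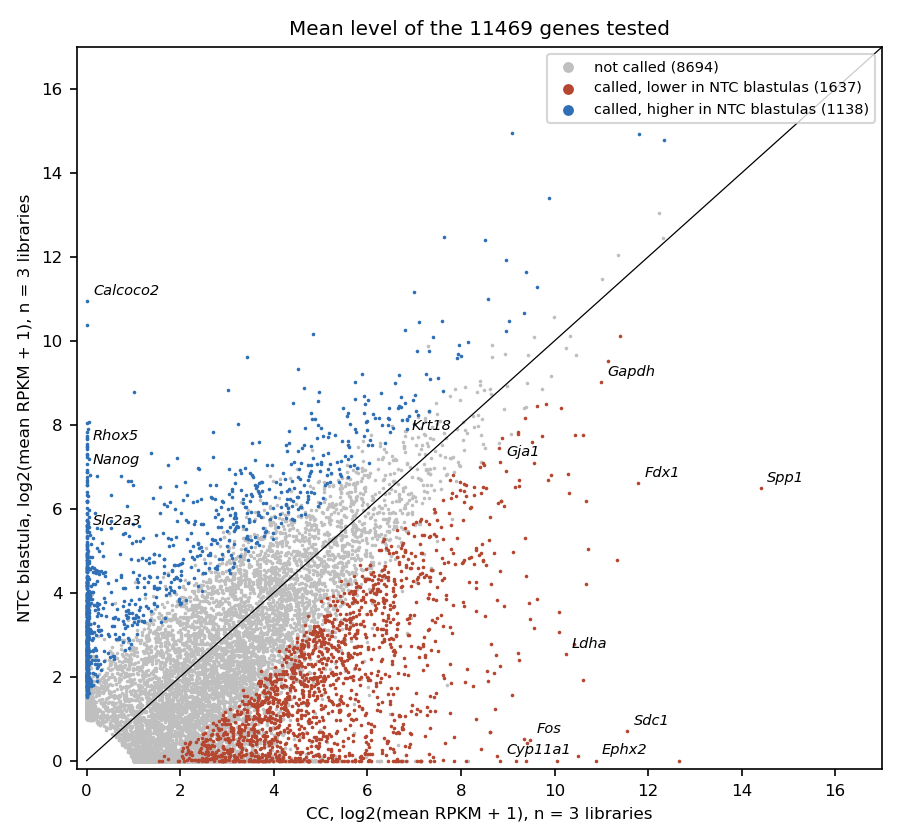
Mean level of each of the 11469 genes tested in CCs (x axis) and NTC blastulas (y axis), both as log2(mean RPKM + 1) over 3 libraries. Blue points were called higher in NTC blastulas (1138), red points lower (1637) and grey points were not called. The line marks equal levels, and Calcoco2 and Sdc1 lie near the opposite axes while Krt18 lies near the line.

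The genes with the largest gains without overlap were Calcoco2, C130073F10Rik, Sord, Fbxo15, 2210409E12Rik, Prps1, Cldn4, Pramel6, AI662270 and Gm12617. Calcoco2, an autophagy receptor, was listed at 0 in all CC libraries and reached 2245, 1574 and 2080 RPKM in the NTC blastulas (adjusted p = 1.09e-05). Fbxo15, an F-box gene known as a target of the pluripotency factors, went from 0.0372, 0.044 and 0.0221 RPKM in CCs to 209.7, 229 and 363 RPKM (log2 fold change 7.98, SE 0.41, adjusted p = 7.89e-05). Sord, which encodes sorbitol dehydrogenase, went from 0.114, 0.0135 and 2.92 RPKM to 469, 602 and 253 RPKM (log2 fold change 7.98, SE 0.63, adjusted p = 0.000303). In each of them the NTC blastulas lay far above every CC library, whereas Prps1, which makes the precursor of nucleotides, was uneven in CCs, at 29.1, 0.127 and 0.0636 RPKM against 1054, 608 and 694 RPKM in NTC blastulas (log2 fold change 7.85, SE 1.22, adjusted p = 0.00415).

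The largest losses without overlap were those of Gm29408, Sdc1, Ephx2, Gm12840, Nrn1, Spp1, Sfrp4, Pdcd1, Akr1cl and Fos. Sdc1, a cell surface proteoglycan, fell from 2047, 4497 and 2485 RPKM in the CC libraries to 0.0199, 1.85 and 0 RPKM in the NTC blastulas (log2 fold change -10.96, SE 0.53, adjusted p = 7.27e-05). Ephx2, the soluble epoxide hydrolase, stood at 2146, 1686 and 1809 RPKM in CCs and was listed at 0 in every NTC blastula (adjusted p = 1.09e-05). Spp1, which encodes osteopontin, was the most abundant of the 10 in CCs, at 42440, 9071 and 14090 RPKM. It fell to 243, 21.4 and 3.39 RPKM (log2 fold change -9.25, SE 1.34, adjusted p = 0.00314) and was the only one of them above 2 RPKM in any NTC blastula. Nrn1, the secreted Wnt antagonist Sfrp4 and Pdcd1, the PD-1 receptor, lay between 370.5 and 1549 RPKM in CCs and at 0 in all NTC blastulas. Gm29408 and Gm12840 are predicted genes, and whether their reads are shared with a near-identical copy was not tested.

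Granulosa identity genes were lost in part. Of 24 genes in the list 19 were tested, of which 8 were down-regulated (42.1%, against 14.3% of all genes) and none up-regulated. The median fold change was -1.65 against -0.32 over all genes. Without CC replicate 1 the list's median was -3.07, with 10 genes down-regulated. Inha, the shared subunit of the inhibins, stood at 191, 319 and 309.9 RPKM in the CC libraries and at 0 in every NTC blastula (adjusted p = 7.52e-05). Inhba, the subunit of activin A, stood at 158, 52.2 and 262 RPKM in CCs and 0, 0.345 and 0 in NTC blastulas (log2 fold change -6.89, SE 0.65, adjusted p = 0.000554). Fst, which binds activin, stood at 28.8, 87 and 176 RPKM in CCs and at 0 in every NTC blastula (adjusted p = 0.00103). Inha, Inhba and Fst, named for their large changes, did not overlap between the groups, and neither did 43.8% of all genes tested. Gata4, a granulosa transcription factor that primitive endoderm also uses, fell from 51, 77.9 and 69.9 RPKM to 0 in every NTC blastula (adjusted p = 0.000238). Of further members, picked after their values were seen, Nr5a1 (steroidogenic factor 1) stood at 45.3, 45.3 and 33.5 RPKM in CCs and 0, 0 and 0.6 in NTC blastulas (log2 fold change -5.16, SE 0.48, adjusted p = 0.000539), and Bmpr1b, a BMP receptor, was listed at 0 in every NTC blastula (adjusted p = 0.00519).

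A pair of granulosa genes was lower in NTC blastulas but far from silent. Serpine2, a secreted protease inhibitor, stood at 692, 751 and 661 RPKM in CCs and 22.8, 9.13 and 5.91 RPKM in NTC blastulas (log2 fold change -5.89, SE 0.47, adjusted p = 0.000305), and the in vivo blastulas held 0.00768, 6.42 and 0.0105 RPKM, a difference from NTC blastulas that was not called (adjusted p = 0.127). Gja1, the connexin of cumulus gap junctions, which trophectoderm also uses, fell from 751, 269 and 343 RPKM to 104, 131 and 175 RPKM (log2 fold change -1.61, SE 0.42, adjusted p = 0.03). It was lower in NTC than in in vivo blastulas, which held 388, 1018 and 979 RPKM (log2 fold change -2.44, SE 0.46, adjusted p = 0.0296). The comparison with in vivo blastulas had 879 called genes, and 1 without NTC blastula replicate 2. Among the members not called, Nr5a2, an orphan receptor used by both granulosa cells and early embryos, overlapped between CCs (1.78, 7.72 and 16.4 RPKM) and NTC blastulas (4.46, 5.88 and 8.89 RPKM, adjusted p = 0.956). Amhr2, the receptor of anti-Mullerian hormone, stood at 7.25, 0 and 14.9 RPKM in CCs and at 3.44, 3.67 and 3.77 RPKM in NTC blastulas (adjusted p = 0.93), and these NTC values were called higher than the in vivo values of 0.0318, 0 and 0 RPKM (adjusted p = 0.0296). Several granulosa genes were uneven among the CC libraries themselves, such as Fshr, the receptor of follicle stimulating hormone, at 0.0901, 0 and 12.8 RPKM and Wt1 at 9.11, 0.0102 and 0 RPKM, and Lhcgr, Nr0b1 and Bmp2 were listed at 0 in all of them.

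The steroid-producing genes had the lowest median of the lists. Of 13 genes 12 were tested, 6 were down-regulated and none up-regulated, with a median fold change of -5.17. Cyp11a1, which cleaves the side chain of cholesterol, stood at 157, 662 and 557 RPKM in CCs and at 0 in every NTC blastula (adjusted p = 0.000208). Fdxr and Fdx1, the reductase and the ferredoxin that pass it electrons, differed in what was left. Fdxr fell from 171, 475 and 304 RPKM to 0.891, 1.5 and 0.628 RPKM (log2 fold change -7.21, SE 0.48, adjusted p = 0.000184). Fdx1 fell from 1978, 3955 and 4674 RPKM to 73.7, 131 and 87.1 RPKM (log2 fold change -5.12, SE 0.38, adjusted p = 0.000238), a level that in vivo blastulas, with 62.4, 0.136 and 13.8 RPKM, reached in no library. Fdx1 also serves the making of haem and iron-sulphur clusters, and its difference from in vivo blastulas was not called (adjusted p = 0.168). Scarb1, the receptor that takes up cholesterol from HDL, fell from 103, 597 and 443 RPKM to 6.55, 1.42 and 0.138 RPKM (log2 fold change -6.78, SE 0.88, adjusted p = 0.00204). Star, which carries cholesterol into mitochondria, fell from 14.7, 147 and 114 RPKM to 3.29, 0.226 and 0 RPKM (log2 fold change -5.21, SE 0.98, adjusted p = 0.00845).

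Steroid enzymes that act after Cyp11a1 were less even among CC libraries. Hsd3b1, which makes progesterone, stood at 6.79, 46.8 and 462 RPKM in CCs and 0 in every NTC blastula (adjusted p = 0.0184), a call that was lost in 4 of 14 alternatives, counted throughout without the replicate block (adjusted p up to 0.0823), namely leaving out any one NTC blastula library and without a filter on low values. Akr1c18, which inactivates progesterone, ranged from 0.262 to 723 RPKM in CCs and was 0 in all NTC blastulas, and it was not called (adjusted p = 0.0907). Cyp19a1, the aromatase, was listed at 0 in all 6 libraries. Cyb5a, a cytochrome that assists steroid enzymes and fatty acid desaturation, overlapped between CCs at 78.1, 14.7 and 26.5 RPKM and NTC blastulas at 19.4, 29.6 and 92.7 RPKM (adjusted p = 0.818).

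Cumulus expansion genes were lost in part. As a sum they were not particular to CCs, with 384.7 to 1017 RPKM in CCs and 643.2 to 1404 RPKM in MEFs. Of 23 genes 22 were in the table and 18 were tested. Of these 7 were down-regulated (38.9%, against 14.3% of all genes) and 1 up-regulated (5.6%, against 9.92%). The median was -2.08, and the other 10 were not called. Tnfaip6, which cross-links the hyaluronan matrix, stood at 105, 248 and 63.7 RPKM in CCs and 0 in every NTC blastula (adjusted p = 0.000374). Vcan, a matrix proteoglycan, stood at 18.5, 41 and 57.4 RPKM and 0 (adjusted p = 0.000999), and Runx2, a transcription factor of the luteinising cell, at 66.6, 98.2 and 119.9 RPKM and 0 (adjusted p = 0.000201). Rgs2, a brake on G protein signalling, fell from 122, 566 and 344 RPKM to 0.0626, 0 and 0.594 RPKM (log2 fold change -7.92, SE 0.62, adjusted p = 0.000291). Ptgs2, the inducible cyclooxygenase, stood at 19.7, 20.1 and 69.4 RPKM in CCs and 0, 0 and 0.663 RPKM in NTC blastulas (log2 fold change -4.72, SE 0.65, adjusted p = 0.0025). All 5 genes separated the groups in full, as did 43.8% of all genes tested. Has2, the hyaluronan synthase of expansion, and Pgr, the progesterone receptor, were listed at 0 in all CC libraries, which had been taken after ovulation.

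Areg, an EGF-like ligand that triggers expansion in the follicle, went the other way. It was listed at 0 in all CC and in vivo blastula libraries and stood at 2.68, 10.3 and 62.8 RPKM in the NTC blastulas (adjusted p = 0.0311). This call was lost in 5 of 14 alternatives (adjusted p 0.0588 to 0.105), which were no filter on low values, leaving out any CC library and leaving out NTC blastula replicate 2. Its relative Ereg was above 1 RPKM in 1 NTC blastula, at 0.0184, 0.0127 and 17.7 RPKM (adjusted p = 0.402). The members not called with the highest levels were Runx1, at 1.02, 28.9 and 93.2 RPKM in CCs and 1.42, 2.21 and 0.91 RPKM in NTC blastulas (adjusted p = 0.152), and the cytokine Il6, at 0.011, 0 and 12 and 0.156, 7.08 and 4.03 RPKM (adjusted p = 0.722).

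**Figure D2:**
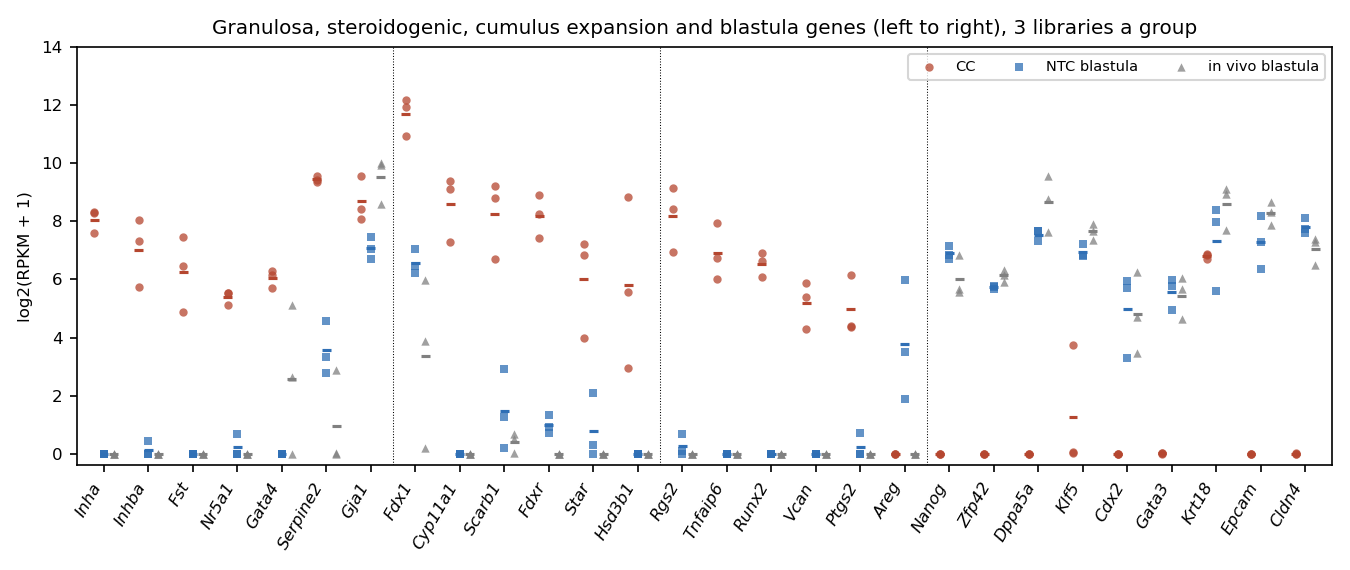
Level of granulosa, steroidogenic, cumulus expansion and blastula genes (left to right, split by dotted lines) in each CC (circles), NTC blastula (squares) and in vivo blastula (triangles) library, as log2(RPKM + 1), with a bar at the mean of 3 libraries. Inha, Fst and Cyp11a1 lie at 0 in all NTC blastulas and Nanog, Zfp42 and Dppa5a at 0 in all CCs, while Gja1 and Krt18 are at 47.8 RPKM or more in every CC and NTC blastula library.

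Bases before an annotated start are shown beside the levels, for a gene that was silenced and for genes that were switched on. They are the 250 bases before a RefSeq start on GRCm38.p6, 5′ to 3′ on the strand of the gene, in lower case with searched motifs in capitals. Promoter here means this window, and whether its start is the one used in these cells was not tested. The Inha window reads as an open coding frame over most of its length, so it may lie inside the gene. Inha lies on the plus strand of chromosome 1 (chr1:75507359-75507608), Nanog on the plus strand of chromosome 6 (chr6:122707239-122707488) and Tspan8, a tetraspanin of the trophectoderm list, on the plus strand of chromosome 10 (chr10:115817034-115817283).
Inha: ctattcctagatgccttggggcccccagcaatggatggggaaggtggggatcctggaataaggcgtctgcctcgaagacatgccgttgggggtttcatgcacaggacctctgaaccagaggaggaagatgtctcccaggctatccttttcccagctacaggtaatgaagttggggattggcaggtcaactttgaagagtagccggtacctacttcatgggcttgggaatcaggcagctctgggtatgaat
Nanog: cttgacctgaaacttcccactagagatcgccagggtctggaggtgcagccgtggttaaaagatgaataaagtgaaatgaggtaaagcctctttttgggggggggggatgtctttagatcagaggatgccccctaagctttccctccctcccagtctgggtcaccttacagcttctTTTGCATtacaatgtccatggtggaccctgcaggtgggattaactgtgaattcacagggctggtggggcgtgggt
Tspan8: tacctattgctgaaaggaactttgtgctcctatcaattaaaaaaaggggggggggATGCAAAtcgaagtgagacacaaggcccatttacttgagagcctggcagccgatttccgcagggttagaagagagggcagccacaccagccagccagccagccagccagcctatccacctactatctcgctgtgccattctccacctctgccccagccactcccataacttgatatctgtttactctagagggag
The letters searched on both strands were AAGGTCA, the site of SF-1 and LRH-1, GGAATG, that of TEAD factors, and ATGCAAA, the core of the POU octamer, which was added after the sequences had been seen. The capitals mark ATGCAAA, at 75 bases before the start on the minus strand in Nanog and at 195 bases before it on the plus strand in Tspan8. A further RefSeq start of Nanog, not shown, has the same site at 151 bases before it. The Inha window held none of these letters. Cyp11a1, Fdxr and Dppa1, picked by the same rule on fold change but not shown, held none either, and Dppa1 had a larger gain (log2 fold change 7.29) than Nanog and Tspan8. Of 27025 genes with such a window 4.7% held AAGGTCA, 14.4% GGAATG and 4.7% ATGCAAA. The octamer core was in 3 of 14 pluripotency and 2 of 16 trophectoderm promoters, and in none of 8 steroidogenesis and 16 granulosa promoters. AAGGTCA was in 1 of 16 granulosa promoters and in none of the other lists. GGAATG was in 2 of 16 granulosa, 1 of 8 steroidogenesis, 1 of 14 pluripotency and 2 of 16 trophectoderm promoters. These matches are a description of the letters and were not tested.

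Immediate early genes, which cells switch on within minutes of a stimulus and also on handling, were high in CCs. They were not particular to CCs, as the list summed to 4493 to 5105 RPKM in CCs and 9714 to 12510 RPKM in MEFs. Of 24 genes 23 were tested, 13 were down-regulated and none up-regulated, with a median of -2.86. Fos stood at 984, 794 and 363 RPKM in CCs and 0.29, 0 and 0.957 RPKM in NTC blastulas (log2 fold change -8.92, SE 0.50, adjusted p = 9.79e-05). Egr1 fell from 396, 322 and 456 RPKM to 1.6, 0.234 and 0 RPKM (log2 fold change -8.04, SE 0.47, adjusted p = 0.000113) and Junb from 386, 626 and 358 to 8.73, 0.514 and 2.13 RPKM (log2 fold change -6.95, SE 0.68, adjusted p = 0.000626). These transcription factors were at 8.73 RPKM or less in every NTC blastula. Ier3 fell from 1421, 1445 and 2040 RPKM to 3.88, 2.18 and 46.5 RPKM (log2 fold change -7.48, SE 0.93, adjusted p = 0.00168), with NTC blastula replicate 3 above the others. Klf6, also used by embryos, was at 354, 74.1 and 240.1 RPKM in CCs and 22.6, 54.4 and 83.3 RPKM in NTC blastulas and was not called (adjusted p = 0.0796). The CCs had been separated from the oocytes by enzyme and pipetting, and the part of this handling in their immediate early genes was not tested.

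Cytokine and NF-kB genes had 15 members tested of 25, with 7 down-regulated, none up-regulated and a median of -3.24. Nfkbia, the inhibitor of NF-kB, fell from 77.7, 164 and 288 RPKM to 3.07, 0.566 and 2.48 RPKM (log2 fold change -5.79, SE 0.62, adjusted p = 0.000918). The receptors Tnfrsf1a (log2 fold change -4.75, SE 0.48, adjusted p = 0.000699), Il1r1 (0 in every NTC blastula, adjusted p = 0.000988) and Ifngr1 (log2 fold change -4.50, SE 0.77, adjusted p = 0.00602) were down-regulated from 18.4 to 104 RPKM in CCs to at most 4.84 RPKM in NTC blastulas. Stat3, which both cumulus cells and inner cell mass use, was not called, at 37.3, 23.7 and 14.9 RPKM in CCs and 19.11, 9.21 and 6.99 RPKM in NTC blastulas (adjusted p = 0.193). The chemokine Cxcl1 was uneven in CCs, at 288, 1.28 and 18.1 RPKM, and was not called against 0 in all NTC blastulas (adjusted p = 0.0746). The chemokine Ccl2 was called lower (adjusted p = 0.0495), from 2.59, 1.42 and 1.75 RPKM in CCs to 0, but the call was lost in 9 of 13 alternatives (adjusted p 0.0521 to 0.124), among them leaving out any one library.

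Matrix genes fell in part. In the matrix list 21 of 30 genes were tested, 9 were down-regulated and none up-regulated, with a median of -2.33. Efemp1, an extracellular glycoprotein, was even in CCs at 1080, 1077 and 1120 RPKM and fell to 23.2, 7.51 and 1.2 RPKM (log2 fold change -7.15, SE 0.78, adjusted p = 0.001). Timp1, an inhibitor of matrix proteases, fell from 98.6, 76.3 and 78.4 RPKM to 0.512, 0.118 and 0.551 RPKM (log2 fold change -5.94, SE 0.42, adjusted p = 0.000219). The basement membrane collagen Col4a1 fell from 49, 100.3 and 142 RPKM to 0.278, 0.539 and 0.933 RPKM (log2 fold change -5.85, SE 0.53, adjusted p = 0.000491), and Col18a1 from 14.5, 71.6 and 65 to 0.0108, 0 and 1.55 RPKM (log2 fold change -4.94, SE 0.76, adjusted p = 0.0039). Of the laminin chains of the basement membrane of the early embryo, Lama1 was down-regulated, while Lamc1 and Lamb1 were not called. Lamc1 stood at 16.3, 18 and 22.6 RPKM in CCs and 19.06, 10.1 and 10.6 RPKM in NTC blastulas (adjusted p = 0.405) and Lamb1 at 24, 17.4 and 20.9 and 14.9, 4.55 and 25.9 RPKM (adjusted p = 0.436). Dcn, the proteoglycan decorin, was called from 2.58, 1.78 and 1.76 RPKM to 0 in every NTC blastula (adjusted p = 0.0412, lost in 6 of 13 alternatives with an adjusted p up to 0.111, among them leaving out any one NTC blastula library and without CC replicate 1 or 2). Dcn and Ccl2 were the 2 of the 1637 down-regulated genes whose CC mean was under 0.1% of the MEF mean.

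In the mesenchymal and cytoskeletal list 16 of 23 genes were tested, 10 were down-regulated and none up-regulated, with a median of -2.31, and 6 were down-regulated without NTC blastula replicate 2. Vim, the intermediate filament of mesenchymal cells, fell from 132, 67.9 and 157 RPKM to 0, 0 and 1.77 RPKM (log2 fold change -6.33, SE 0.59, adjusted p = 0.000554). The annexins Anxa1 (log2 fold change -6.46, SE 0.73, adjusted p = 0.00111) and Anxa2 (log2 fold change -4.51, SE 0.50, adjusted p = 0.00104) and N-cadherin, Cdh2 (0 in every NTC blastula, adjusted p = 0.00102), fell too. S100a11 overlapped between the groups, at 158, 69.3 and 217 RPKM in CCs and 154, 240.5 and 249.8 RPKM in NTC blastulas (adjusted p = 0.343). Tpm2, a tropomyosin, was at 24.8, 0.185 and 77.2 RPKM in CCs and 0.156, 0 and 0.942 RPKM in NTC blastulas and was not called (adjusted p = 0.133).

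Glycolysis was the list with the largest share of down-regulated genes. All 20 genes were tested, 16 were down-regulated and 1 up-regulated, with a median of -3.71, and leaving out a library gave 14 to 18 down-regulated genes. Processed copies of several of these enzymes exist in the mouse genome, and whether reads were split with them was not tested. Of the entry steps, Slc2a1, the glucose carrier GLUT1, fell from 119.5, 192 and 213 RPKM in CCs to 6.42, 8.99 and 24.4 RPKM in NTC blastulas (log2 fold change -3.79, SE 0.53, adjusted p = 0.00273), and Pfkl, a subunit of the rate-setting phosphofructokinase, from 216, 231 and 146 to 4.58, 0.777 and 3.36 RPKM (log2 fold change -5.80, SE 0.52, adjusted p = 0.00049). Slc2a3, the carrier GLUT3 of the trophectoderm, was the member that rose, from 0 in all CC libraries to 62.9, 37.2 and 29.5 RPKM (adjusted p = 0.000539), and in vivo blastulas had 47.4, 20.8 and 24.5 RPKM. The main glucose carrier thus differed between CCs and NTC blastulas.

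Of the later steps, Gapdh was the enzyme left highest. It fell from 2036, 2063 and 1984 RPKM to 424, 577 and 556 RPKM (log2 fold change -1.98, SE 0.19, adjusted p = 0.000566). Eno1 fell from 299, 619.5 and 336 RPKM to 3.48, 2.75 and 3.44 RPKM (log2 fold change -6.56, SE 0.39, adjusted p = 0.000121) and Pkm, pyruvate kinase, from 1442, 2234 and 1393 RPKM to 29.1, 31.6 and 34.7 RPKM (log2 fold change -5.66, SE 0.27, adjusted p = 7.27e-05). In all 3 enzymes the groups were far apart and the NTC blastulas close to each other. Ldha, which turns pyruvate into lactate, fell from 1129, 1663 and 837 RPKM to 0.254, 0.81 and 13.4 RPKM (log2 fold change -8.51, SE 0.88, adjusted p = 0.000779), with NTC blastula replicate 3 above the others, and was listed at 0 in all in vivo blastulas. Slc16a3, which exports lactate, fell from 164, 311 and 219 RPKM to 0, 0.00988 and 1.4 RPKM (log2 fold change -7.39, SE 0.52, adjusted p = 0.000208). Ldhb was uneven, at 0.29, 39 and 7.75 RPKM in CCs and 0.145, 0.1 and 4.55 RPKM in NTC blastulas, and was not called (adjusted p = 0.298), nor was Aldoc (adjusted p = 0.26). Against in vivo blastulas none of the 14 glycolysis genes tested was called, with a median of 0.74, where 9.46% of all genes tested were called and the median was 0.85.

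**Figure D3:**
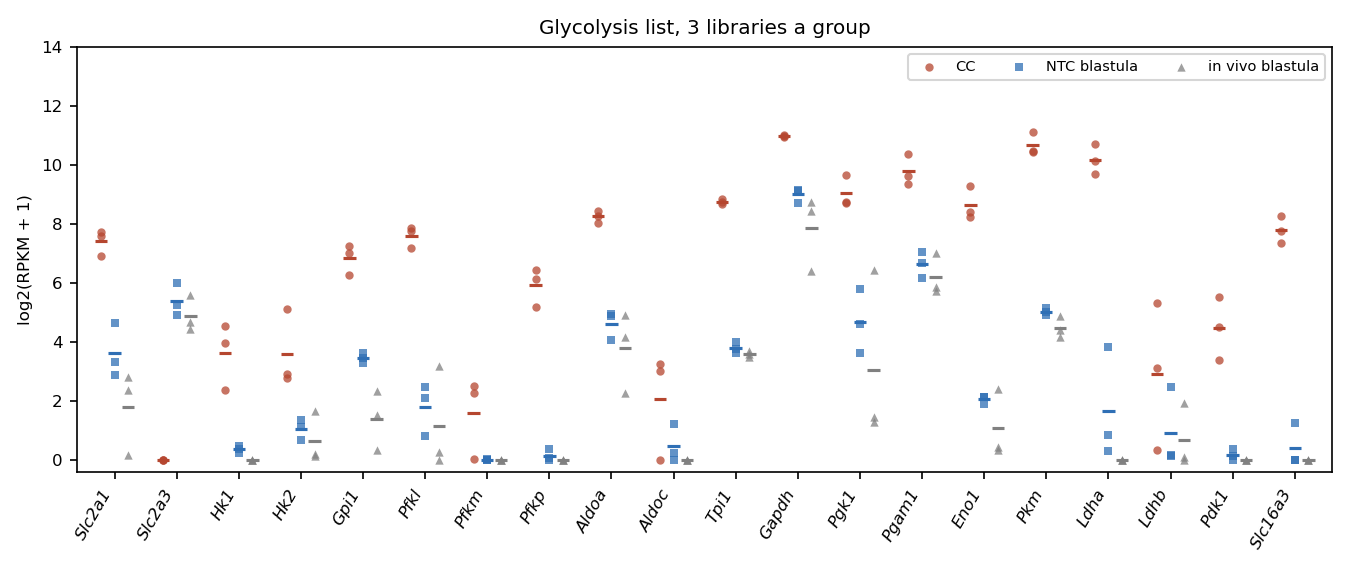
Level of the 20 genes of the glycolysis list in each CC (circles), NTC blastula (squares) and in vivo blastula (triangles) library, as log2(RPKM + 1), with a bar at the mean of 3 libraries. CC circles lie above the NTC blastula squares in the 16 down-regulated genes, and Slc2a3 is the gene at 0 in CCs and at 29.5 to 62.9 RPKM in NTC blastulas.

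Cholesterol synthesis, which feeds steroid making in CCs and membranes in every cell, went down in part. All 21 genes were tested, 9 were down-regulated and 1 up-regulated, with a median of -1.94 (-1.18 without NTC blastula replicate 3). None was up-regulated without CC replicate 2 or 3 or without any one NTC blastula library. Fdps, which makes farnesyl diphosphate, stood at 13.3, 20.9 and 16.7 RPKM in CCs and 0 in every NTC blastula (adjusted p = 0.00136). Dhcr7, the last reductase, fell from 51.6, 181 and 208 RPKM to 6.33, 9.14 and 4.47 RPKM (log2 fold change -4.09, SE 0.60, adjusted p = 0.00327) and Sc5d, a desaturase, from 54.8, 104 and 50.5 to 3.97, 8.89 and 8.2 RPKM (log2 fold change -3.13, SE 0.48, adjusted p = 0.00396). Cyp51 and Pmvk were not called, with Cyp51 at 37, 51.6 and 74 RPKM in CCs and 43.1, 27.3 and 16.5 RPKM in NTC blastulas (adjusted p = 0.193) and Pmvk at 13, 66.6 and 49 and 169.7, 131 and 14.5 RPKM (adjusted p = 0.493).

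The NTC blastulas were above in vivo blastulas in the same pathway, in a comparison where the in vivo libraries listed fewer genes above 0. Of 18 cholesterol genes tested in that comparison 7 were up-regulated and none down-regulated, with a median of 2.33 against 0.85 over all genes, where 8.81% of the genes were up-regulated and 0.657% down-regulated. Cyp51 stood at 0.0721, 0 and 0 RPKM in in vivo blastulas (adjusted p = 0.025) and Sqle, which oxidises squalene, at 1.19, 0.0211 and 0.0628 RPKM against 21.6, 33 and 20.6 RPKM in NTC blastulas (log2 fold change 4.26, SE 0.63, adjusted p = 0.025). Sc5d was at 0 in all 3 in vivo blastulas (adjusted p = 0.0273), so that NTC blastulas lay between these and CCs. This comparison had 879 called genes in all, 1 without NTC blastula replicate 2, 541 and 561 without in vivo replicate 2 and 3, 163 with median-ratio scaling and 78 without a filter on low values, and in its called genes the up-regulated share of 93.1% became 53.4% with that scaling.

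Pluripotency and epiblast genes were the list up-regulated most often. Of 24 genes 23 were in the table and 19 were tested, 13 were up-regulated and none down-regulated, with a median of 3.36. Nanog, the homeobox factor of the epiblast, was listed at 0 in every CC library and stood at 102, 142 and 114 RPKM in the NTC blastulas (adjusted p = 0.000119). Dppa5a, an RNA-binding protein of pluripotent cells, went from 0 to 158, 202 and 201 RPKM (adjusted p = 7.93e-05), and Dppa4 from 0 to 60.3, 65.5 and 88.2 RPKM (adjusted p = 0.000217). Its partner Dppa2 went from 0.0687, 0.0162 and 0.0163 RPKM in CCs to 91.2, 132 and 208 RPKM (log2 fold change 7.05, SE 0.47, adjusted p = 0.000175). These genes were at 60.3 RPKM or more in every NTC blastula and at 0.0687 RPKM or less in every CC library. Pou5f1, which encodes OCT4 and has many pseudogenes, was called at a much lower level, from 0.0119, 0 and 0 to 5.49, 5.82 and 4.05 RPKM (log2 fold change 2.60, SE 0.49, adjusted p = 0.00831), and in vivo blastulas held 2.86, 0.104 and 3.33 RPKM.

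Sox2, the partner of OCT4, was under the filter on low values, at 0 in all CC libraries and 0.515, 1.48 and 0.809 RPKM in the NTC blastulas, below the 19.2, 4.88 and 15.2 RPKM of in vivo blastulas, a difference that was not called (adjusted p = 0.0526). Klf2 and Tdgf1 were the members not called with the highest levels. Klf2, a naive pluripotency factor that other cells use too, was at 44.6, 9.59 and 16.3 RPKM in CCs and 1.31, 0.484 and 13.2 RPKM in NTC blastulas (adjusted p = 0.106). Tdgf1, the Nodal co-receptor Cripto, was at 0, 17.9 and 28.8 RPKM in CCs, 4.04, 0.02 and 0 RPKM in NTC blastulas and 44, 16 and 8.5 RPKM in in vivo blastulas (adjusted p = 0.264 against CCs). Of 22 pluripotency genes tested against in vivo blastulas none was called, with a median of -0.34. Over all genes tested 9.46% were called and the median was 0.85, or 0.33 with median-ratio scaling. The in vivo libraries listed fewer genes above 0, and the difference between the list and all genes was not tested.

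Trophectoderm genes had 16 members tested of 20, with 9 up-regulated, none down-regulated and a median of 2.73. Cdx2, the trophectoderm homeobox factor, was at 0 in CCs and at 60.4, 51.2 and 8.83 RPKM in NTC blastulas (adjusted p = 0.00404), and Gata3 went from 0, 0.0238 and 0.0319 to 61.7, 53.8 and 29.9 RPKM (log2 fold change 5.54, SE 0.49, adjusted p = 0.000471). Tspan8 was at 0 in CCs and at 256, 158 and 49.7 RPKM in NTC blastulas (adjusted p = 0.000539), and Dppa1 went from 0, 0 and 0.0201 to 359, 194 and 54.5 RPKM (log2 fold change 7.29, SE 0.70, adjusted p = 0.000605). In all 4 genes NTC blastula replicate 3 was the lowest. The keratin Krt18 and Id2, an inhibitor of DNA binding, were the uncalled members with the highest mean. Krt18 stood at 116, 104 and 114 RPKM in CCs and 338, 251 and 47.8 RPKM in NTC blastulas (adjusted p = 0.588), and Id2 at 203, 722 and 113 and 311, 94.9 and 7.86 RPKM (adjusted p = 0.296), with NTC blastula replicate 3 far below the other libraries. Of 17 trophectoderm genes tested against in vivo blastulas none was called, with a median of 0.12, where 9.46% of all genes tested were called and the median was 0.85.

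Junction and cavity genes, by which the outer cells seal and pump fluid, were called in both directions. Of 24 genes 23 were tested, 10 were up-regulated (43.5%, against 9.92% of all genes) and 3 down-regulated (13%, against 14.3%), with a median of 1.28. The E-cadherin gene Cdh1 went from 0.0234, 0.0277 and 0.0416 to 53.8, 32.7 and 40.5 RPKM (log2 fold change 5.36, SE 0.46, adjusted p = 0.000425), and Cldn4, a claudin, from 0.0147, 0 and 0 to 214, 274 and 193 RPKM (log2 fold change 7.81, SE 0.39, adjusted p = 7.52e-05). Epcam (adjusted p = 0.000269) and Ocln (adjusted p = 0.0021) were at 0 in all CC libraries and at 80.3 to 291 and 10.2 to 17.2 RPKM in the NTC blastulas. The 3 that fell were also epithelial genes in name. The junction molecule F11r fell from 431, 97.1 and 265 to 33.2, 25.5 and 18.6 RPKM (log2 fold change -3.10, SE 0.56, adjusted p = 0.00742), the sodium pump subunit Atp1b3 from 110.3, 135 and 120.5 to 15.5, 21.1 and 14.1 RPKM (log2 fold change -2.79, SE 0.33, adjusted p = 0.00136) and Ezr, which links membrane and actin, from 139, 30.9 and 243 to 8.33, 3.93 and 1.43 RPKM (log2 fold change -4.42, SE 0.84, adjusted p = 0.00892), a call that was lost without NTC blastula replicate 2. Pkp2, a plaque protein of desmosomes, was not called (adjusted p = 0.788).

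Primitive endoderm genes were split, with 9 tested of 17. Of these 2 were up-regulated (22.2%, against 9.92% of all genes) and 5 down-regulated (55.6%, against 14.3%). The 5 that fell, Gata4, Lama1, Col4a1, Col4a2 and Serpinh1, are a granulosa factor and matrix genes that CCs also use. Lrp2, the endocytic receptor megalin, was at 0 in CCs and at 11.1, 9.96 and 10.9 RPKM in NTC blastulas (adjusted p = 0.00245), and Dab2, its adaptor, went from 7.09, 11.2 and 17.3 to 118, 79.7 and 49 RPKM (log2 fold change 2.69, SE 0.49, adjusted p = 0.00756). Gata6, an early factor of this lineage, was at 10.2, 3.54 and 12.7 RPKM in CCs and 20.9, 43.4 and 23.5 RPKM in NTC blastulas without overlap, but was not called (adjusted p = 0.0693).

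**Figure D4:**
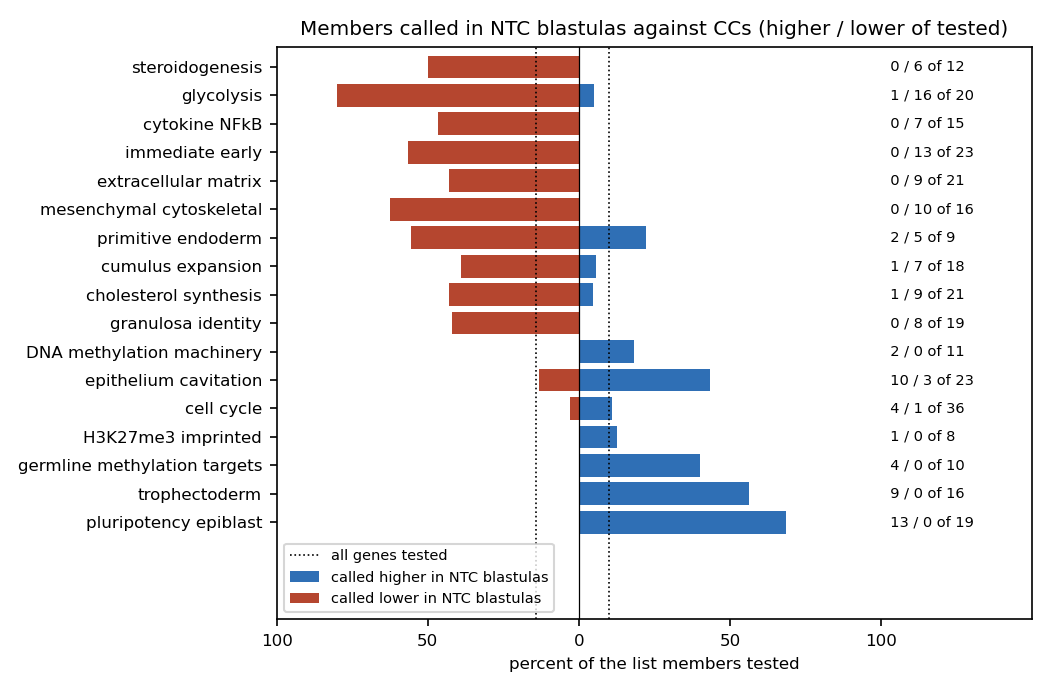
Share of the tested members of each gene list called higher (blue, to the right) or lower (red, to the left) in NTC blastulas against CCs, in percent, with the counts at the right and lists ordered by median fold change. Dotted lines mark the share over all genes tested (9.92% higher and 14.3% lower). Glycolysis has 16 of 20 members lower and pluripotency 13 of 19 higher.

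Genes that read or set DNA methylation had few called members. Of 12 genes 11 were tested, 2 were up-regulated (18.2%, against 9.92% of all genes) and none down-regulated. The median of -0.12 became 0.19 with median-ratio scaling, 0.73 with mitochondrial reads left out, and -0.43 to 0.46 without single libraries, the extremes being without NTC blastula replicate 2 and without CC replicate 1. The de novo methyltransferase Dnmt3b went from 0.0105, 0.00619 and 0.00621 to 11.6, 12.4 and 3.66 RPKM (log2 fold change 3.20, SE 0.60, adjusted p = 0.00857). Tet1, which oxidises methylcytosine, went from 0, 0.00215 and 1.5 to 4.97, 3.41 and 4.72 RPKM (log2 fold change 1.97, SE 0.59, adjusted p = 0.0474), and its call was lost in 8 of 14 alternatives (adjusted p 0.0534 to 0.129), among them leaving out any one NTC blastula library and without CC replicate 1 or 2. Trim28, at 46.1, 7.33 and 23.7 RPKM in CCs and 15.6, 19.8 and 20.8 RPKM in NTC blastulas (adjusted p = 0.902), and Tdg (adjusted p = 0.195) were not called. Of the noncanonical imprinted genes, which H3K27me3 silences on the maternal allele, 1 of 8 tested was called, up-regulated (12.5%, against 9.92% of all genes). It was Slc38a4, an amino acid carrier, from 0, 0.024 and 0.00802 to 14.5, 11.8 and 10.2 RPKM (log2 fold change 3.69, SE 0.49, adjusted p = 0.00221), with 11.4, 28.7 and 20.6 RPKM in in vivo blastulas. The table gives no allele, so this says nothing of which copy was read.

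Germline genes, which DNA methylation keeps silent in somatic cells, had 10 members tested of 20 and 4 up-regulated, with a median of 2.01. Rhox5, an X-linked homeobox gene, was listed at 0 in all CC libraries and stood at 149.7, 268 and 120.0 RPKM in the NTC blastulas (adjusted p = 0.000141). In vivo blastulas held only 0.169, 0.155 and 0.808 RPKM, so that NTC blastulas were far above both (log2 fold change 6.98, SE 0.63, adjusted p = 0.0218 against in vivo). Y-linked genes summed to 0.028, 73.0 and 36.5 RPKM in these in vivo blastulas and to 0.0146 or less in NTC blastulas. The part of embryo sex in the difference was not tested. Fkbp6, a chaperone of the piRNA pathway, was at 0 in CCs, 5.4, 12.3 and 3.69 RPKM in NTC blastulas (adjusted p = 0.0113) and 0.472, 0 and 0 RPKM in in vivo blastulas (log2 fold change 2.69, SE 0.60, adjusted p = 0.0387). Tex19.1 went from 0.0572, 0 and 0.0508 to 15.4, 15.8 and 12.4 RPKM (log2 fold change 3.90, SE 0.48, adjusted p = 0.0016), with 17.1, 14.4 and 26 RPKM in in vivo blastulas. Slc25a31, a mitochondrial carrier of the testis, was called at 2.81, 11 and 1.93 RPKM (adjusted p = 0.0463) and lost its call in 9 of 14 alternatives (adjusted p 0.0535 to 0.106), among them leaving out any one library. Pramel6, one of the genes with the largest gains, was also above in vivo blastulas, at 252, 158 and 221 RPKM in NTC blastulas, 0 in CCs and 1.25, 21.3 and 5.77 RPKM in in vivo blastulas (log2 fold change 4.89, SE 0.87, adjusted p = 0.0273 against in vivo).

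Cell cycle genes rested on single libraries. Of 38 genes 36 were tested, 4 were up-regulated (11.1%, near the 9.92% of all genes) and 1 down-regulated (2.8%, against 14.3%). The median was 1.48 (0.73 without CC replicate 3). No member was up-regulated without NTC blastula replicate 1 or 2, against 12 without CC replicate 1. Cdkn1b, the inhibitor p27 of resting cells, was even in CCs at 34, 35 and 34.9 RPKM and fell to 0.0333, 0.635 and 0 RPKM (log2 fold change -4.90, SE 0.47, adjusted p = 0.000605). Mki67, a mark of dividing cells, went from 0.0452, 0.00314 and 0.0126 to 4.27, 13.1 and 2.39 RPKM (log2 fold change 2.63, SE 0.65, adjusted p = 0.0253), and Ccne1, a cyclin of S phase entry, from 0.0402, 0 and 7.94 to 15.5, 30.2 and 27.6 RPKM (log2 fold change 3.54, SE 0.91, adjusted p = 0.0279). The calls of Mki67, Ccne1, Cdc6 and Mcm2 were lost in 3, 7, 3 and 7 of 14 alternatives (adjusted p up to 0.0708, 0.121, 0.0894 and 0.170), and each was lost without NTC blastula replicate 1 or 2. The mitotic genes Cdc20, at 156, 0.169 and 0.645 RPKM in CCs and 82.1, 124 and 47.7 RPKM in NTC blastulas, and Ccnb1, at 89.1, 0.645 and 0.781 and 107, 129 and 63.4 RPKM, were not called (adjusted p = 0.177 and 0.0951). CC replicate 1 lay above all NTC blastulas for Cdc20 and among them for Ccnb1, and the other CC libraries were below 1 RPKM in both.

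Whether the outcome depended on the donor was asked by comparing NTC with NTM blastulas, and the donors with each other. CCs and MEFs differed in 753 of 11978 genes tested (6.29%), 275 higher in CCs (2.3%) and 478 lower (3.99%), and the count was 421, 385 or 481 without MEF replicate 1, 2 or 3. NTC and NTM blastulas differed in 0 of 10187 by limma (0.0%), with 315 genes at an unadjusted p under 0.05, and 17 were called in a fit over all 20 groups. Of the 275 genes higher in CCs than in MEFs 193 were expressed enough to be tested between the blastulas, where 55.4% were higher in NTC blastulas with a median difference of 0.05, against 48.2% and -0.02 over all genes tested. Of these 193 genes 14 had an unadjusted p under 0.05 (7.25%, against 3.09% of all genes). The 236 genes tested of the 478 lower in CCs had a median difference of -0.02, and 8 of them had an unadjusted p under 0.05 (3.39%). Each of these comparisons shares libraries with that of NTC blastulas with CCs, and their values stand side by side with no test of the overlap.

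The distance travelled differed between the donors for 688 of 12556 genes tested (5.48%), by a test of the difference between NTC blastulas minus CCs and NTM blastulas minus MEFs. In 475 genes this difference was positive (3.78%) and in 213 negative (1.7%). Among steroidogenesis genes 6 of 12 tested were more negative for CCs and none more positive, and among granulosa genes 5 and 1 of 18. In the matrix list 17 of 30 were more positive and 1 more negative, and among immediate early genes 4 and 0 of 24. Glycolysis had 1 of 20 more negative. For glycolysis, NTM blastulas against MEFs had 16 of 19 genes down-regulated and 1 up-regulated, beside the 16 and 1 of 20 of NTC blastulas against CCs, where 30.8% of all genes tested were called in NTM blastulas against MEFs, 11% higher and 19.8% lower. For pluripotency genes the counts up-regulated were 14 of 20 from MEFs and 13 of 19 from CCs.

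Levels between donor cell and blastula were read from the NTC embryos of each stage. The 1-cell values are those of an oocyte with an injected nucleus, so that they hold maternal RNA and do not give the donor transcripts alone. Inha was listed at 0 in all NTC 1-cell embryos and in every NTC library of the later stages. Serpine2 held 80.8 to 92.7 RPKM at the 1-cell stage, against 661 to 751 in CCs. Rgs2, which oocytes also carry, stood at 521 to 602 RPKM in NTC 1-cell embryos and 34.5 to 55.5 RPKM at the 2-cell stage, and at 1.47 RPKM or less from the 4-cell stage on. Its 1-cell level was above the CC mean of 344 RPKM. Gapdh went through a low point, from 1984 to 2063 RPKM in CCs to 13.1 to 23.6 RPKM at the 1-cell stage and back to 424 to 577 RPKM in blastulas. The blastula genes came on at different stages. Calcoco2 was listed at 0 in the 1-cell embryos and reached 7.58 to 49.8 RPKM at the 2-cell stage, and Nanog stood at 7.03 to 19.9 RPKM in 8-cell embryos. Rhox5 was at 3.48 to 70 RPKM in 8-cell embryos and higher, at 120.0 to 268 RPKM, in blastulas.

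**Figure D5:**
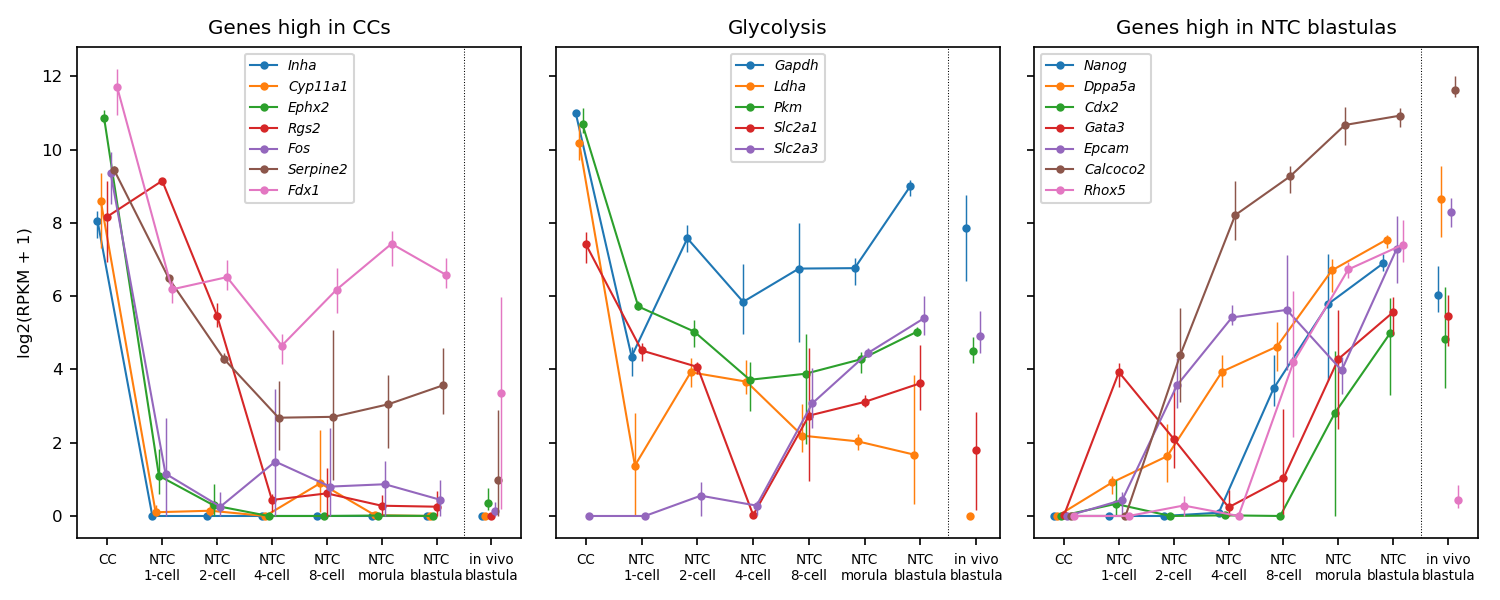
Level, as log2(RPKM + 1), of genes high in CCs (left), glycolysis genes (middle) and genes high in NTC blastulas (right) in CCs, in NTC embryos of each stage and, after the dotted line, in in vivo blastulas. Points are means over 3 libraries and vertical lines run from the lowest to the highest library. Inha and Cyp11a1 are near 0 in blastulas, Gapdh dips at the 1-cell stage, and Rhox5 is at 120 to 268 RPKM in NTC blastulas and below 1 RPKM in in vivo blastulas.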

How the data were processed

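Single embryos and donor cells were sequenced after tailing and amplification without molecular identifiers, with 3 libraries per group. The authors deposited RPKM values of 27238 genes, which the study describes as made by alignment with TopHat and Bowtie2 and counting with HTSeq, while the submitters' processing notes name Bowtie 0.12.2 and mm8. Reads were recovered at GENCODE M21 lengths for 21286 genes and at steps fitted to a gene's own values for 5277, while 675 genes were not recovered. In the recovered genes 99.06% of the values came out as whole reads (within 0.05). That share follows largely from the choice of lengths that gave whole reads, so it is no independent check. The recovery gave the depth of each library. Losses before amplification are not covered by such counts.

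After a filter at 0.5 RPKM on the mean of the libraries compared, log2(RPKM + 1) was fitted with limma (3.58.1, lmFit and eBayes with an intensity trend) in R 4.3.3, and genes were called below an adjusted p of 0.05 if the fold change was 1 or more on the log2 scale. The difference between donors was an interaction over 4 groups. Other steps used Python 3.11.15, numpy 2.4.6, pandas 2.3.3 and matplotlib 3.10.9. Scripts were tested on simulated data.

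The members and the 24 gene lists were chosen with earlier results of these data known. Named genes are the 10 largest changes without overlap in each direction, per list up to 4 called members in each direction with the largest change and up to 2 uncalled members with the highest mean RPKM, and the 4 largest called interaction terms of each sign. Any other gene was named after its values had been seen. Of the lists, 12 genes were not used here. Alternatives were a pseudocount of 0.1, no filter, a filter at 2 RPKM, median-ratio scaling, one fit over 20 groups, a replicate block, no fold threshold, leaving out single libraries, thinning to equal depth and, added after the data had been seen, nuclear reads only. A few members of these lists are counted but not reported here by name.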

Additional observations from a re-analysis of the deposited data

Results flagged for a closer look

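The change from donor to blastula differed between the CC and the MEF series for 688 genes by limma, as tested by the interaction described above. The 4 largest positive differences, in log2 units as NTC minus NTM, were those of Col1a1 (10.23), Dcn (10.06), Col3a1 (9.86) and Ccl2 (9.73). These genes were listed at 0 in all NTC and NTM blastulas, so their differences are those of the donors. The size of these and of the negative differences below depends on the pseudocount where a group was at 0. Col1a1 stood at 2140, 2980 and 3335 RPKM in MEFs and 1.51, 1.17 and 1.26 RPKM in CCs, and Ccl2 at 3565, 2357 and 1754 RPKM in MEFs and 2.59, 1.42 and 1.75 RPKM in CCs. The 4 largest negative differences were those of Gm29408 (-9.55), Ephx2 (-9.41), Efemp1 (-9.38) and Sfrp4 (-8.82). Here the CCs were the higher donor, with Ephx2 at 2146, 1686 and 1809 RPKM in CCs and 1.31, 1.38 and 3.34 RPKM in MEFs, and Efemp1 at 1080, 1077 and 1120 and 0.792, 3.22 and 0.441 RPKM. Gm29408 was uneven in CCs, at 239.8, 16090 and 3076 RPKM. Groups of 3 are too small for a check for single outlying libraries.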

How the results depend on the processing

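The count of 2775 genes called in NTC blastulas against CCs became 4844 in one fit over all 20 groups and ranged from 1504 to 3208 when single libraries were left out. The 688 interaction genes became 1742 in that fit and 530 to 861 without single libraries. The 879 genes against in vivo blastulas became 1574 with a pseudocount of 0.1, 78 without a filter, 577 with a stricter filter, 163 with median-ratio scaling, 2368 over all groups and 1 to 1085 without single libraries. The count between NTC and NTM blastulas of 0 became 17 over all groups. The 753 donor genes became 414 without a filter, 3380 over all groups and 385 to 701 without single libraries. The cause of these moves was not tested, and a fit with 1 library fewer has less power by its own construction. Of 90 called named genes, 79 kept their call in every other setting and 78 without any single library, and none changed direction. Among uncalled named genes 22 gained a call in at least 1 setting. With the replicate number as a block, 2231, 620 and 12 genes were called in NTC blastulas against CCs, in the interaction and against in vivo blastulas, and 5 of the 90 named genes lost their call, among them Ccl2 (adjusted p = 0.165 by limma), Dcn (0.149), Tet1 (0.105) and Slc25a31 (0.0807). The numbers did not pair NTC blastulas with CCs, as deviations of same-numbered libraries correlated at 0.0221, -0.0117 and 0.0199. Between NTC and NTM blastulas they correlated at 0.130, 0.0962 and 0.103 for the same number and at -0.0789 to -0.0405 for different numbers. The source of this was not tested. With the block, 0 genes were called between NTC and NTM blastulas by limma, and 436 had an unadjusted p under 0.05. The lower depth of NTC blastulas leaves genes below about 0.147 RPKM open there, and 3 libraries per group limit all p-values.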

Other observations

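The CC libraries differed from each other in mitotic genes, a pattern picked after the values were seen. The CC libraries held 69.3, 0.0537 and 0.0215 RPKM of the kinase Aurkb in the order of replicates 1 to 3, 49.4, 0.0363 and 0.0146 RPKM of the checkpoint kinase Bub1 and 22.2, 0.0432 and 0.13 RPKM of Plk1. Top2a, which untangles DNA in dividing cells, was at 25.4, 0.0175 and 0.0316 RPKM. NTC blastulas stood at 25.1, 34.8 and 10 RPKM for Aurkb and 20.5, 24.8 and 9.78 RPKM for Bub1, so that CC replicate 1 lay above all of them, whereas the other CC libraries lay below all of them. Mki67 did not follow, at 0.0452, 0.00314 and 0.0126 RPKM in CCs. The replicates have no order, and none of these 5 genes but Mki67 was called between CCs and NTC blastulas.

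Genes of other samples of the series were present in CCs at low and even levels. Of genes at 500 RPKM or more in all MEF libraries, 12 were below 5 RPKM in all CC libraries, among them Col1a1, Col3a1, Dcn, Postn and Cxcl5. All 12 were above 0 in every CC library, with a mean of 0.0455 to 0.0750% of the MEF mean and a median of 0.0580%. In the NTC blastulas 10 of the 12 were at 0 in every library. Oocyte genes showed small values of the same evenness in CCs, with Gdf9 at 2.24, 1.76 and 1.82 RPKM and H1foo at 4.75, 3.5 and 4.3 RPKM. The source of these low levels was not tested.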
